A study of Mus musculus with 18 samples.

Results

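The genes described here encode the translation initiation factors (eIFs) and the aminoacyl-tRNA synthetases, measured on Affymetrix expression arrays of mouse splenic CD4 T cells. They were chosen by symbol: Eif followed by a digit from 1 to 6, without the Eif2ak kinases, Eif2s3x and Eif2s3y, and the synthetase symbols of the form Wars, Wars2 or Mars1, with Eprs, Farsa and Farsb. The rule found 76 of the 18193 genes that have a probe set with a single symbol, 41 initiation factors and 35 synthetases, and the brightest such probe set stood for each gene. By role they fell into 4 genes of eIF1 and eIF1A, 8 of eIF2 and its exchange factor eIF2B, 11 of eIF3, 10 of the cap-binding complex eIF4F and its helpers, 3 regulators of eIF4E, 5 of eIF5, eIF5A, eIF5B and eIF6, 19 cytosolic synthetases and 16 mitochondrial synthetases. Eif1, Eif2s1, Eif4g1 and the gene of the cytosolic aspartate enzyme were not among the 76, so the role groups are not complete sets. The mean level of 73 of the 76 lay above that of the median gene.

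The 18 arrays formed 6 groups of 3. Stimulated cells of Gli2A Tg, Gli2R Tg and WT mice had received antibodies to CD3 and CD28 for 6 h, and resting cells of the same 3 genotypes were taken fresh after purification. All mice had the C57BL/6 background and were between 9 and 15 weeks old, and the cells were drawn from spleen with magnetic beads. Gli2A and Gli2R are transgenic forms of Gli2, a transcription factor of the Hedgehog pathway that can act as an activator or a repressor. The promoter that drives the transgenes and the number of mice behind each array are named in none of the sources used here. The p-values therefore measure only the spread between these arrays. No group was cultured without the antibodies, so culture and antibody cannot be told apart in the stimulation comparison. In bulk RNA, fewer cells of a type and less RNA per cell cannot be told apart either.

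Translation begins when eIF2, carrying GTP and the initiator methionyl-tRNA, joins the small ribosomal subunit together with eIF1, eIF1A, eIF3 and eIF5. The cap-binding protein eIF4E, the scaffold eIF4G and the helicase eIF4A, together called eIF4F, bring the mRNA, and eIF2B reloads eIF2 with GTP after each round. Aminoacyl-tRNA synthetases join each amino acid to its tRNA, and most amino acids have separate enzymes for the cytosol and for mitochondria. A resting T cell translates little and starts to enlarge and raise protein synthesis within hours of activation. The transcription factor ATF4, made when eIF2 is phosphorylated or mTORC1 is active, binds composite elements with C/EBP proteins in the promoters of many amino acid genes, several tRNA synthetases among them.

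Promoter windows of RefSeq, build GRCm38.p6, from 250 bases before to 50 bases after the transcription start, were held for 58 of the 76 members. A gene was counted for a motif if any of its windows held it. The ATF4 and C/EBP composite element, searched as TGATGNAAN on both strands, was found in 5 of the 58 members. All 5 were cytosolic synthetases, of which 12 had a window. These 5 are 8.62% of the 58 members and 41.7% of the 12 cytosolic synthetases. Of the 14453 measured genes that had a window, 3.22% held the element. A window of each of these 5 genes is shown, as they are the only members found with the element. A window of Qars is shown because Qars was the only cytosolic synthetase whose brightest probe set did not rise in any genotype. Where a gene had several windows, the one with the most matches to the element is shown. Capitals mark the element, which reads as its reverse complement in Aars, Gars, Iars and Tars and as searched in Yars. Each is written 5′ to 3′ on the strand of its gene.
Aars: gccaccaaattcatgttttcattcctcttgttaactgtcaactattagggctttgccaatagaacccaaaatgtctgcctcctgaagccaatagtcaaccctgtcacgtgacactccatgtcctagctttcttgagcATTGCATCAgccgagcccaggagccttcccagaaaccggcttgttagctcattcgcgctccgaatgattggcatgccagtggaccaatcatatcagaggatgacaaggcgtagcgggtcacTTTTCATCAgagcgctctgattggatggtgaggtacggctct
Gars: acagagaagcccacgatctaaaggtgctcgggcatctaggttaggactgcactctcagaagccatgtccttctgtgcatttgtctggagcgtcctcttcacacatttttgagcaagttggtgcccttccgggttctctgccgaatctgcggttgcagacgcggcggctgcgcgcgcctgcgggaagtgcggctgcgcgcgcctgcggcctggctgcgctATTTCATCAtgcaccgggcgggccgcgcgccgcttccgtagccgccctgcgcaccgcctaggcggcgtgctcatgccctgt
Iars: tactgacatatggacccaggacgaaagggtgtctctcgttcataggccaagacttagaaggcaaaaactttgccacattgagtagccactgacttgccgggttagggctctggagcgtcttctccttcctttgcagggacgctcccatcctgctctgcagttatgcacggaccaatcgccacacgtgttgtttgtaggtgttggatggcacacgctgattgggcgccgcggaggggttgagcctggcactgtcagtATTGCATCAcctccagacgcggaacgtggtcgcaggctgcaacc
Tars: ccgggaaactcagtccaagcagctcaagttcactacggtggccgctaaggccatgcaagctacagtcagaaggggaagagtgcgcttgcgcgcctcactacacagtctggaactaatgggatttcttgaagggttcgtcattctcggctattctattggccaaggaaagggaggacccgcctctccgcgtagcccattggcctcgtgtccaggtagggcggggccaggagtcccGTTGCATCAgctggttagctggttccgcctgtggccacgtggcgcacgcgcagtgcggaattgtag
Yars: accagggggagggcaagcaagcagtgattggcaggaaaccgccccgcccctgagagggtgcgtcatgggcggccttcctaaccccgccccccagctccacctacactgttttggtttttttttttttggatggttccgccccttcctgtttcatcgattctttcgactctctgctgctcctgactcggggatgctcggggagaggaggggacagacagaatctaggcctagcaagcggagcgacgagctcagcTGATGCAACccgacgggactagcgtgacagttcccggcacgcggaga
Qars: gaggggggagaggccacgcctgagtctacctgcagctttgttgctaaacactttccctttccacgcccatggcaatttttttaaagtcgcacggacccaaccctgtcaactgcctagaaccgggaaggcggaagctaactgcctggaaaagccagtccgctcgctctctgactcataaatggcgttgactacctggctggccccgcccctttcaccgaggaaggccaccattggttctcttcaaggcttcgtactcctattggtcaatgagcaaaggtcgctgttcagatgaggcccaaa
The windows lie at chr8:111033592-111033891 for Aars, chr6:55037751-55038050 for Gars, chr13:49681880-49682179 for Iars, chr4:129189653-129189952 for Yars and chr9:108507755-108508054 for Qars on the plus strand, and at chr15:11399609-11399908 for Tars on the minus strand. Aars held 2 elements, from 105 to 113 bases before the start and from 9 to 17 bases after it. The element lay 23 to 31 bases before the start in Gars and 8 to 16 bases before it in Tars, and inside the first transcribed bases in Iars, at 7 to 15, and in Yars, at 4 to 12.

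The E-box CACGTG is the site read by MYC with MAX and by other basic helix-loop-helix factors. It was found in 14 of the 58 members with a window, 24.1%, against 10.2% of all measured genes with a window. Aars, Iars and Tars held both an E-box and the composite element, with no overlap between them. The ETS-like motif CCGGAAGT was found in 10 members, 17.2% against 6.62%, and a palindrome of the factor NRF1 in 1, Eif3k, 1.72% against 1.75%. A C followed by 4 pyrimidines at the annotated start, the beginning of a 5′ terminal oligopyrimidine tract, was found in Eif3f and Wars2, 3.45% against 2.93%. These matches are a description of the windows, without a test.

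The values are intensities that the authors had scaled on each array. They are given below on the scale log2(intensity + 16) after quantile normalization, so they rank arrays for 1 probe set and not genes against each other. The 3′ to 5′ ratio of the Gapdh control probe sets was 1.71 to 2.79 on the 9 stimulated arrays and 0.709 to 1.13 on the 9 resting arrays. Stimulated Gli2A Tg replicate 2 had the highest actin 3′ to 5′ ratio, 3, and lay far from the other arrays on the third principal component. On the second component the array farthest out was resting Gli2A Tg replicate 3. Of 12 myeloid markers, 11 fell with stimulation in each genotype: their summed intensity was 1840 to 5330 in stimulated and 103000 to 109000 in resting Gli2A Tg cells, 1070 to 1600 and 44700 to 58100 in Gli2R Tg cells, and 1210 to 1870 and 63500 to 94300 in WT cells. None of the 12 was listed at 0 in any group. Erythroid markers moved the same way, with 4, 2 and 4 of 5 lower in Gli2A Tg, Gli2R Tg and WT cells, and of 6 B cell markers 2, 3 and 2 were lower and 1, 1 and 0 higher. Of 4 CD8 T and NK cell markers 3, 2 and 2 were lower and 1 was higher in each genotype. Of 6 CD4 T cell markers 4, 5 and 5 were lower and 1, 0 and 0 higher, with a summed intensity of 28800 to 37000 over the stimulated and 60000 to 82100 over the resting arrays, and none was listed at 0. The part of RNA quality and of these other cells in the stimulation differences below was not tested.

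Most of the machinery was higher after stimulation in every genotype. In each of Gli2A Tg, Gli2R Tg and WT cells 49 of the 76 members were higher in stimulated than in resting cells, with 9, 9 and 11 lower. Over all genes, 20.2%, 19.8% and 19.7% were called higher and 22.8%, 22.5% and 22% lower in the same 3 comparisons, at a limma adjusted p under 0.05 (Benjamini-Hochberg over all 18193 genes). Among the 9096 genes above the median level, which is where the members mostly lie, 32.4%, 31.8% and 32% were called higher and 34.1%, 34.8% and 33.6% lower. The 3 arrays of each state lay wholly apart for 60, 63 and 64 of the members, against 50.4%, 52.1% and 51.7% of all genes. The median log2 difference of the members was 0.74 in Gli2A Tg, 0.89 in Gli2R Tg and 0.82 in WT cells, and that of all genes was 0.0039, 0.0056 and -3.2e-05. A log2 difference of 1 is a doubling of intensity plus the constant.

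The lower calls rest more on the scaling than the higher ones. With each array centred on its median in place of quantile normalization, which moves the median of all genes by 0.111 in Gli2A Tg and 0.129 in WT cells, 47, 47 and 50 members were higher and 5, 9 and 4 lower in Gli2A Tg, Gli2R Tg and WT cells. Single members could move further than that median, as in WT cells Eif1b from -0.59 to -0.21 and Eif2b2 from -0.37 to -0.01. Without resting WT replicate 3 the lower calls in WT cells numbered 7, and without resting Gli2A Tg replicate 1 those in Gli2A Tg cells numbered 5.

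**Figure D1:**
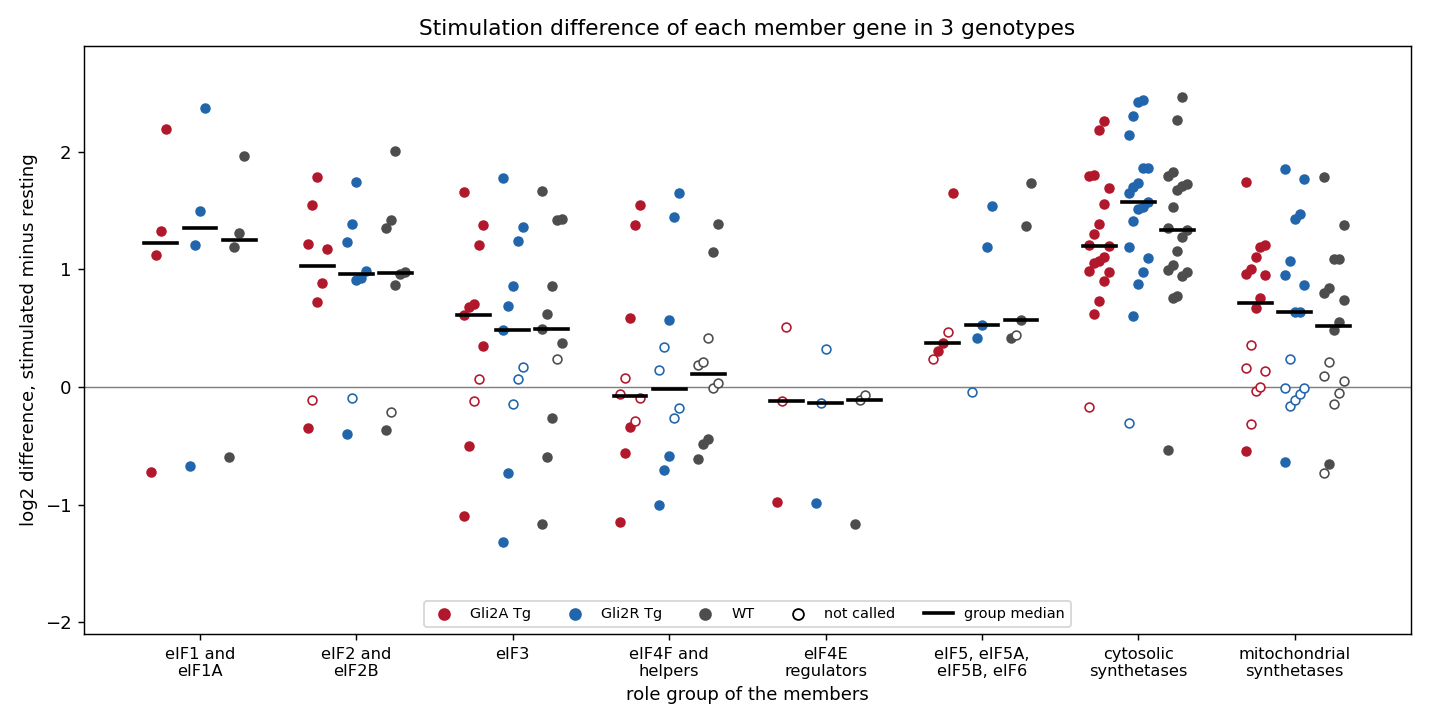
Log2 difference between stimulated and resting cells (vertical axis) for each of the 76 members, by role group (horizontal axis) and genotype (colour). Filled points passed the test, open points did not, and black lines are group medians. The cytosolic synthetases sit high, with 18 of 19 filled above 0 in every genotype, and the eIF4F group straddles 0.

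The 3 genotypes gave the same call for most members. The same 47 members were higher in all 3 genotypes and the same 9 lower, 14 were not called in any, and 6 differed. Over all genes 13.9% were higher in all 3 and 16.4% lower in all 3. The 6 that differed were Eif3f and Qars, called lower in WT cells, Eif3m, higher in Gli2A Tg and WT cells, Eif4a1, higher in Gli2R Tg cells, Eif4a3, higher in Gli2A Tg cells, and Eif5b, higher in Gli2R Tg and WT cells. None of these 6 had a called difference of stimulation effects between genotypes. Across the 76 members the stimulation differences of Gli2A Tg and WT cells had a Pearson r of 0.946. Those of Gli2R Tg and WT cells had 0.964 and those of Gli2A Tg and Gli2R Tg cells 0.951. Over all genes r was 0.883, 0.879 and 0.881 in the same order. The points are genes that share arrays and are not replicates.

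The scanning factors were among the members that moved most. Eif1a, which encodes eIF1A and helps the small subunit scan for the start codon, had levels of 12.57, 12.53 and 12.43 in stimulated Gli2A Tg cells, against 10.30, 10.19 and 10.47 in resting Gli2A Tg cells. Its levels were 12.58, 12.57 and 12.48 in stimulated Gli2R Tg cells, against 10.10, 10.19 and 10.22 in resting Gli2R Tg cells. They were 12.36, 12.31 and 12.33 in stimulated WT cells, against 10.37, 10.36 and 10.37 in resting WT cells. No resting array reached the stimulated ones in any genotype, and Eif1a rose by 2.19 ± 0.11, 2.37 ± 0.11 and 1.96 ± 0.11 (log2, SE) in Gli2A Tg, Gli2R Tg and WT cells, a 3.89-fold rise in WT cells (limma adjusted p = 3.83e-09). Its X-linked copy Eif1ax rose by 1.33 in Gli2A Tg, 1.5 in Gli2R Tg and 1.31 in WT cells, and the eIF1A-domain gene Eif1ad by 1.12 in Gli2A Tg, 1.21 in Gli2R Tg and 1.19 in WT cells. Eif1a and Eif1ax are near-identical in sequence, so their probe sets may read each other's RNA.

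Eif1b, a close relative of the start codon selection factor eIF1, went the other way. Its levels were 11.82, 12.04 and 12.02 in stimulated WT cells, against 12.43, 12.65 and 12.57 in resting WT cells. The ranges did not overlap. The log2 difference was -0.59 ± 0.15 in WT cells (limma adjusted p = 0.00531), -0.72 in Gli2A Tg cells and -0.67 in Gli2R Tg cells. With median centring it was -0.21 in WT cells (adjusted p = 0.332) and -0.38 in Gli2A Tg cells (adjusted p = 0.0695).

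In the eIF2 and eIF2B group 6 of 8 members rose and 1 fell in every genotype, 75% and 12.5%. Of genes above the median level, 32.4%, 31.8% and 32% rose and 34.1%, 34.8% and 33.6% fell in Gli2A Tg, Gli2R Tg and WT cells. The median log2 difference of the 8 members was 1.03 in Gli2A Tg, 0.96 in Gli2R Tg and 0.97 in WT cells. Eif2b3, the gamma subunit of eIF2B and part of its catalytic subcomplex, moved most. Its levels were 11.30, 11.11 and 11.18 in stimulated Gli2A Tg cells, against 9.11, 9.31 and 9.83 in resting Gli2A Tg cells. They were 11.38, 11.20 and 11.15 in stimulated Gli2R Tg cells, against 9.40, 9.43 and 9.68 in resting Gli2R Tg cells. They were 11.41, 11.46 and 11.55 in stimulated WT cells, against 9.44, 9.26 and 9.71 in resting WT cells. All 9 stimulated arrays lay above all 9 resting arrays, with a 4.02-fold difference in WT cells (log2 2.01 ± 0.17, SE; limma adjusted p = 2.54e-07).

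The other subunits of eIF2B did not move alike. Eif2b5, the catalytic epsilon subunit, rose by 0.73 in Gli2A Tg, 0.99 in Gli2R Tg and 0.96 in WT cells. Of the regulatory subunits, Eif2b1 rose by 1.17 in Gli2A Tg, 0.91 in Gli2R Tg and 0.87 in WT cells, and Eif2b4 by 1.22 in Gli2A Tg, 1.23 in Gli2R Tg and 1.35 in WT cells. Eif2b2, the third regulatory subunit, fell by small amounts, with log2 differences of -0.35 in Gli2A Tg, -0.40 in Gli2R Tg and -0.37 in WT cells (adjusted p = 0.0377, 0.0188 and 0.0295 in the same order). Its fall was not called in any genotype with median centring or with the deposited scaling alone, where the WT values were -0.01 and -0.21, nor in WT cells without any one of stimulated WT replicate 1 and resting WT replicates 1, 2 and 3 (-0.38 to -0.30).

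Eif2s2, the beta subunit of eIF2 itself, had levels of 14.45, 14.25 and 14.25 in stimulated WT cells, against 13.40, 13.33 and 13.30 in resting WT cells. The groups did not overlap, and it rose by 0.98 ± 0.13 (log2, SE; limma adjusted p = 2e-05). Of its 6 probe sets, 5 rose in WT cells and 1 fell, by a log2 difference of -1.95 ± 0.17 (SE). Eif2a, which can deliver initiator tRNA without GTP and is not a subunit of eIF2, rose by 1.54 in Gli2A Tg, 1.39 in Gli2R Tg and 1.42 in WT cells. Eif2d, another factor that brings tRNA to the ribosome independently of eIF2, was not called, at -0.11 in Gli2A Tg, -0.09 in Gli2R Tg and -0.22 in WT cells, while its second probe set was at 0.54 ± 0.15 (SE) in WT cells.

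The subunits of the eIF3 complex, the large platform that holds the small subunit, mostly rose, and a few fell. Of 11 subunits, 7 rose and 2 fell in Gli2A Tg cells, 6 rose and 2 fell in Gli2R Tg cells, and 7 rose and 3 fell in WT cells. That is 63.6%, 54.5% and 63.6% higher, against 32.4%, 31.8% and 32% of genes above the median level. The shares lower were 18.2%, 18.2% and 27.3%, under the 34.1%, 34.8% and 33.6% of those genes. The median log2 difference was 0.61, 0.49 and 0.49 in the same order. Eif3b, a core scaffold subunit, had levels of 13.56, 13.46 and 13.34 in stimulated WT cells, against 11.79, 11.61 and 11.96 in resting WT cells. It rose without overlap by 1.67 ± 0.14 (log2, SE; limma adjusted p = 1.9e-07). The other core subunits Eif3c and Eif3a rose by 1.21 in Gli2A Tg, 1.24 in Gli2R Tg and 1.43 in WT cells, and by 0.61 in Gli2A Tg, 0.69 in Gli2R Tg and 0.49 in WT cells. Eif3d, a subunit that can itself bind the cap of some mRNAs, rose by 1.38 in Gli2A Tg, 1.36 in Gli2R Tg and 1.42 in WT cells, but not in the mean of its 2 probe sets (0.56, 0.56 and 0.51; adjusted p = 0.0702, 0.0719 and 0.101). Eif3i rose by 0.70 in Gli2A Tg, 0.49 in Gli2R Tg and 0.62 in WT cells.

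Eif3k was the member with the largest fall in Gli2R Tg and WT cells. Its levels were 12.83, 12.62 and 12.75 in stimulated Gli2A Tg cells, against 13.86, 13.87 and 13.77 in resting Gli2A Tg cells. They were 12.52, 12.60 and 12.63 in stimulated Gli2R Tg cells, against 13.76, 13.88 and 14.08 in resting Gli2R Tg cells. They were 12.60, 12.70 and 12.81 in stimulated WT cells, against 13.82, 13.90 and 13.90 in resting WT cells. All 9 stimulated arrays lay below all 9 resting arrays. The log2 difference was -1.10 ± 0.12, -1.32 ± 0.12 and -1.17 ± 0.12 (SE), so that resting WT cells held 2.25 times the level of stimulated WT cells (limma adjusted p = 1.01e-06). Eif3k kept its call in all 3 genotypes under each of the 11 other settings and with each of the 18 arrays left out. Eif3l, the subunit that pairs with eIF3k at the edge of the complex, rose by 0.68 in Gli2A Tg, 0.86 in Gli2R Tg and 0.86 in WT cells.

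The MPN-domain subunits Eif3h and Eif3f lay on the lower side. Eif3h had levels of 13.60, 13.68 and 13.70 in stimulated WT cells, against 14.21, 14.31 and 14.25 in resting WT cells, without overlap. It fell, at a log2 difference of -0.60 ± 0.11 in WT cells (SE; limma adjusted p = 0.000347), with -0.51 and -0.73 in Gli2A Tg and Gli2R Tg cells. With median centring the value was -0.26 in WT cells (adjusted p = 0.151) and -0.24 in Gli2A Tg cells (adjusted p = 0.199), and the mean of its probe sets was not called in any genotype, at -0.12, 0.17 and -0.20 in Gli2A Tg, Gli2R Tg and WT cells (adjusted p = 0.668, 0.531 and 0.454). Eif3f was called lower in WT cells, at -0.26 ± 0.10 (adjusted p = 0.0429). That call was lost with 12 of the 18 arrays left out in turn, over which the value kept between -0.28 and -0.24. With the deposited scaling Eif3f was called lower in Gli2A Tg (-0.47) and Gli2R Tg cells (-0.45) and not in WT cells (-0.27), and with median centring in Gli2R Tg cells (-0.41) and not in WT cells (-0.075). Eif3m was at 0.35 in Gli2A Tg, 0.17 in Gli2R Tg and 0.38 in WT cells, called in Gli2A Tg and WT cells, and Eif3e was called in none, at 0.06 in Gli2A Tg, 0.07 in Gli2R Tg and 0.24 in WT cells.

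**Figure D2:**
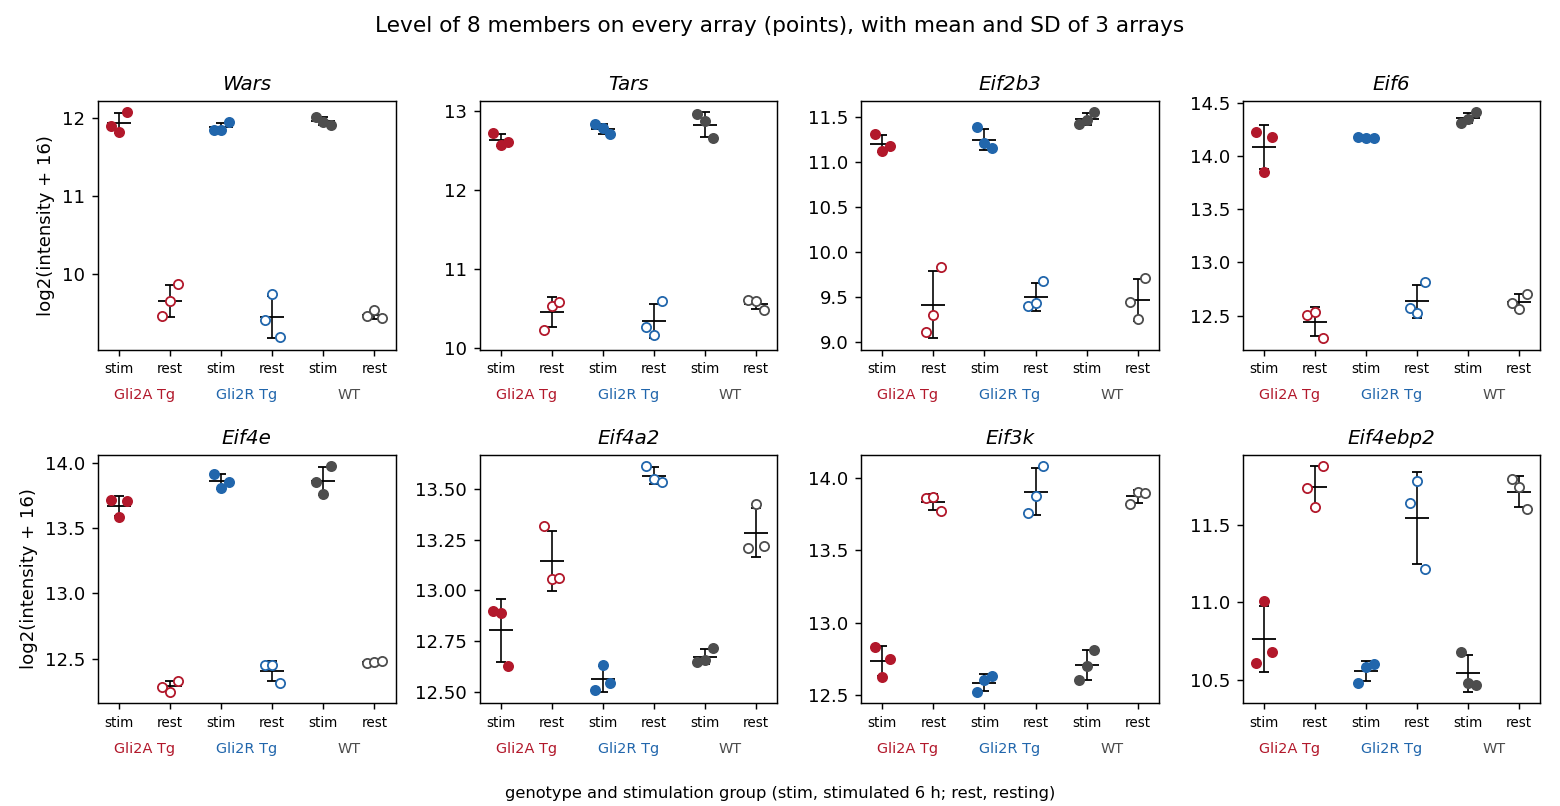
Level of 8 members on every array, as log2(intensity + 16) after quantile normalization (vertical axis), by genotype and stimulation (horizontal axis). Filled points are stimulated and open points resting arrays, with the mean and SD of 3 arrays. Wars, Tars, Eif2b3, Eif6 and Eif4e lie higher in every stimulated group, and Eif4a2, Eif3k and Eif4ebp2 lie lower, though Eif4a2 in Gli2A Tg cells was at 0.069 with median centring.

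The counts of the cap-binding complex and its helpers do not set the group apart from other genes above the median level. Of 10 members, 3 rose, 3 fell and 4 were not called in each transgenic line, and 2 rose, 3 fell and 5 were not called in WT cells. In Gli2A Tg, Gli2R Tg and WT cells this is 30%, 30% and 20% higher, against 32.4%, 31.8% and 32% of those genes, and 30% lower in each against 34.1%, 34.8% and 33.6%. The medians were -0.08 in Gli2A Tg, -0.01 in Gli2R Tg and 0.11 in WT cells. The 2 that rose in every genotype were Eif4e and Eif4h. Eif4e, the cap-binding protein, had levels of 13.71, 13.58 and 13.70 in stimulated Gli2A Tg cells, against 12.29, 12.25 and 12.33 in resting Gli2A Tg cells. They were 13.91, 13.80 and 13.85 in stimulated Gli2R Tg cells, against 12.45, 12.45 and 12.32 in resting Gli2R Tg cells. They were 13.85, 13.76 and 13.97 in stimulated WT cells, against 12.47, 12.48 and 12.48 in resting WT cells. Stimulated and resting arrays were far apart in each genotype, and Eif4e rose 2.61-fold in WT cells (log2 1.39 ± 0.10, SE; limma adjusted p = 6.31e-08). Eif4h, a cofactor of the eIF4A helicase, rose by 1.55 in Gli2A Tg, 1.65 in Gli2R Tg and 1.15 in WT cells.

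The 2 relatives of Eif4e did not rise with it. Eif4e3 had levels of 8.68, 9.18 and 8.76 in stimulated WT cells, against 9.43, 9.34 and 9.31 in resting WT cells, without overlap. Its log2 differences were -0.56 in Gli2A Tg, -0.59 in Gli2R Tg and -0.48 in WT cells (adjusted p = 0.0151, 0.0117 and 0.0343). In WT cells the call was lost without any one of stimulated WT replicates 1 and 3 and resting WT replicates 1, 2 and 3 (-0.51 to -0.39). Eif4e2, also called 4EHP, a cap-binding protein that competes with eIF4E on some mRNAs, was not called, at -0.29 in Gli2A Tg, -0.18 in Gli2R Tg and -0.01 in WT cells, and its second brightest probe set was at 0.74 ± 0.14 (SE) in WT cells. The mean of its probe sets was called higher in Gli2A Tg cells, at 0.49.

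Among the helicases, Eif4a2 fell in all 3 genotypes. Its levels were 12.90, 12.89 and 12.62 in stimulated Gli2A Tg cells, against 13.32, 13.06 and 13.06 in resting Gli2A Tg cells. They were 12.51, 12.63 and 12.55 in stimulated Gli2R Tg cells, against 13.61, 13.55 and 13.54 in resting Gli2R Tg cells. They were 12.64, 12.66 and 12.72 in stimulated WT cells, against 13.21, 13.43 and 13.22 in resting WT cells. The groups did not overlap in any genotype, with log2 differences of -0.34 ± 0.12, -1.0 ± 0.12 and -0.61 ± 0.12 (SE; limma adjusted p = 0.0328, 6.53e-06 and 0.000698). With median centring the values were 0.07 in Gli2A Tg, -0.78 in Gli2R Tg and -0.19 in WT cells, called in Gli2R Tg cells only. Without stimulated Gli2A Tg replicate 3 or resting Gli2A Tg replicate 1 the Gli2A Tg value was -0.25 and not called.

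Eif4a1, the main eIF4A of proliferating cells, gave no single answer. Its brightest probe set was at 13.71, 13.85 and 13.84 in stimulated WT cells, against 13.34, 13.22 and 13.59 in resting WT cells. Those ranges did not overlap, the log2 difference was 0.42 ± 0.20 (SE; limma adjusted p = 0.11), and the call was made in Gli2R Tg cells only, at 0.57, and lost without any one of 5 arrays (0.44 to 0.59). In WT cells the same probe set was called higher with median centring (0.83, adjusted p = 0.00155), the deposited scaling (0.64, adjusted p = 0.0149), the trended, robust model (adjusted p = 0.0471) and both arrays that stood apart left out (adjusted p = 0.0425). Its other 2 probe sets fell in WT cells, by log2 differences of -1.44 ± 0.27 and -2.35 ± 0.31 (SE), and the mean of the 3 was called lower in every genotype, at -1.80 in Gli2A Tg, -1.03 in Gli2R Tg and -1.12 in WT cells. The single-symbol probe set of Eif4a3, a helicase of the exon junction complex, was dim, with a mean level of 4.62, and its values were 0.59 in Gli2A Tg, -0.26 in Gli2R Tg and 0.04 in WT cells, called in Gli2A Tg cells at an adjusted p of 0.0495. That call was lost in 14 of 18 repeats that left out 1 array (0.45 to 0.61).

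Eif4b, the other cofactor of eIF4A, fell in all 3 genotypes. Its levels were 12.13, 11.98 and 12.04 in stimulated Gli2A Tg cells, against 12.96, 13.23 and 13.40 in resting Gli2A Tg cells. They were 12.23, 12.04 and 12.17 in stimulated Gli2R Tg cells, against 12.88, 12.85 and 12.81 in resting Gli2R Tg cells. They were 12.52, 12.40 and 12.36 in stimulated WT cells, against 12.85, 12.81 and 12.95 in resting WT cells. No genotype showed overlap, and the log2 differences were -1.15 ± 0.12, -0.70 ± 0.12 and -0.44 ± 0.12 (SE; limma adjusted p = 2.16e-06, 0.000262 and 0.00876). With median centring the WT value was -0.05, and with probe sets averaged it was -0.06 (adjusted p = 0.764) and the Gli2R Tg value -0.09 (adjusted p = 0.66), so neither was called. The dimmest of its 3 probe sets was called higher in Gli2R Tg cells, at 0.76 (adjusted p = 0.0276). The scaffold genes Eif4g2, an eIF4G relative that does not bind eIF4E, and Eif4g3 were not called in any genotype, at -0.06 in Gli2A Tg, 0.34 in Gli2R Tg and 0.22 in WT cells, and at 0.08 in Gli2A Tg, 0.15 in Gli2R Tg and 0.19 in WT cells. With probe sets averaged, Eif4g2 was called higher in all 3 genotypes, at 0.37, 0.58 and 0.66 in Gli2A Tg, Gli2R Tg and WT cells, and Eif4g3 in Gli2R Tg cells, at 0.47. Eif4g2 was also called in Gli2R Tg cells with a constant of 64, among genes above the median level, with the trended, robust model and with array weights (0.32 to 0.34).

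Of the regulators of eIF4E, Eif4ebp2 was called. Eif4ebp2 encodes a binding protein that keeps eIF4E from eIF4G until mTORC1 phosphorylates it. Its levels were 10.61, 11.01 and 10.68 in stimulated Gli2A Tg cells, against 11.74, 11.61 and 11.88 in resting Gli2A Tg cells. They were 10.48, 10.59 and 10.61 in stimulated Gli2R Tg cells, against 11.64, 11.78 and 11.21 in resting Gli2R Tg cells. They were 10.68, 10.48 and 10.47 in stimulated WT cells, against 11.79, 11.74 and 11.60 in resting WT cells. All stimulated arrays lay below all resting arrays, with log2 differences of -0.98 ± 0.16, -0.99 ± 0.16 and -1.17 ± 0.16 (SE; limma adjusted p = 0.000109, 0.000101 and 2.07e-05). The call held in each genotype under the 11 other settings and with each of the 18 arrays left out, and all 5 of its probe sets had negative values in WT cells.

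Eif4ebp1, the better-known member of that family, was not called, at 0.51 in Gli2A Tg, 0.33 in Gli2R Tg and -0.11 in WT cells. Without resting Gli2A Tg replicate 3, one of the arrays that stood apart, its Gli2A Tg value was 0.85 (limma adjusted p = 0.00164). It was also called higher in Gli2A Tg cells with median centring (0.74), array weights (0.70), probe sets averaged (0.87) and both arrays that stood apart left out (0.81), and in Gli2R Tg cells with probe sets averaged (0.93). Its dimmest probe set was at 1.25 ± 0.29 (SE) in WT cells. Eif4enif1, which carries eIF4E into the nucleus, was at -0.12 in Gli2A Tg, -0.14 in Gli2R Tg and -0.07 in WT cells and was not called.

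Of the late factors, Eif6 moved most. eIF6 binds the large ribosomal subunit and keeps it from joining too early, and also takes part in making that subunit. Its levels were 14.31, 14.35 and 14.41 in stimulated WT cells, against 12.61, 12.56 and 12.70 in resting WT cells. The arrays were far apart, and Eif6 rose 3.33-fold (log2 1.74 ± 0.13, SE; limma adjusted p = 5.82e-08), with 1.65 in Gli2A Tg cells and 1.54 in Gli2R Tg cells. Eif5, the GTPase activator of eIF2, rose by 0.38 in Gli2A Tg, 0.53 in Gli2R Tg and 0.57 in WT cells. Eif5b, the GTPase that joins the subunits, was at 0.47 in Gli2A Tg, 1.19 in Gli2R Tg and 1.37 in WT cells, called in Gli2R Tg and WT cells. With probe sets averaged both Eif5b calls were lost, at 0.63 and 0.64 (adjusted p = 0.0823 and 0.08), and so was the WT call of Eif5, at 0.30 (adjusted p = 0.0607).

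Eif5a, which carries the amino acid hypusine and acts mainly in elongation, had a direction that depended on the scaling. It was called higher in all 3 genotypes, at 0.30 in Gli2A Tg, 0.42 in Gli2R Tg and 0.42 in WT cells, but was at -0.14, -0.08 and 0.48 with median centring and at -0.31, -0.12 and 0.28 with the deposited scaling alone. Its second probe set was at 1.06 ± 0.14 (SE) in WT cells. Its paralogue Eif5a2 was not called in any genotype, at 0.24 in Gli2A Tg, -0.04 in Gli2R Tg and 0.44 in WT cells, but was called higher in all 3 with probe sets averaged, at 0.56, 0.44 and 0.78 in the same order.

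The cytosolic synthetases rose nearly as a whole. In each genotype 18 of 19 were higher, 94.7%. Of genes above the median level, 32.4%, 31.8% and 32% were higher in Gli2A Tg, Gli2R Tg and WT cells. The median log2 difference of the 19 was 1.2 in Gli2A Tg, 1.58 in Gli2R Tg and 1.33 in WT cells. Wars, the tryptophan enzyme, had the largest difference of all members in WT cells. Its levels were 11.89, 11.82 and 12.07 in stimulated Gli2A Tg cells, against 9.46, 9.66 and 9.87 in resting Gli2A Tg cells. They were 11.84, 11.85 and 11.94 in stimulated Gli2R Tg cells, against 9.42, 9.74 and 9.20 in resting Gli2R Tg cells. They were 12.004, 11.95 and 11.90 in stimulated WT cells, against 9.47, 9.54 and 9.45 in resting WT cells. Stimulated arrays spanned a narrow range well above every resting array, with a 5.52-fold rise in WT cells (log2 2.47 ± 0.15, SE; limma adjusted p = 6.81e-09).

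Tars, the threonine enzyme, had levels of 12.96, 12.87 and 12.66 in stimulated WT cells, against 10.60, 10.59 and 10.48 in resting WT cells. The groups did not overlap, and it rose 4.82-fold (log2 2.27 ± 0.14, SE; limma adjusted p = 9.45e-09), with 2.19 in Gli2A Tg cells and 2.44 in Gli2R Tg cells. Iars, the isoleucine enzyme, had levels of 12.58, 12.40 and 12.39 in stimulated WT cells, against 10.77, 10.22 and 10.90 in resting WT cells. Its resting arrays varied more, but it rose without overlap by 1.83 ± 0.20 (log2, SE; limma adjusted p = 3.22e-06), and by 1.80 and 2.30 in Gli2A Tg and Gli2R Tg cells. Kars, the lysine enzyme of both compartments, rose by 1.69 in Gli2A Tg, 1.86 in Gli2R Tg and 1.80 in WT cells. Eprs, the fused glutamate and proline enzyme, rose by 1.07 in Gli2A Tg, 1.74 in Gli2R Tg and 1.73 in WT cells. Lars, the leucine enzyme, rose by 1.38 in Gli2A Tg, 1.51 in Gli2R Tg and 1.71 in WT cells, and Cars, the cysteine enzyme, by 1.80 in Gli2A Tg, 2.14 in Gli2R Tg and 1.68 in WT cells.

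The smallest rises in WT cells were those of Sars, the serine enzyme, at 0.62 in Gli2A Tg, 0.60 in Gli2R Tg and 0.75 in WT cells, and of Gars, the glycine enzyme of both compartments, at 0.90 in Gli2A Tg, 0.98 in Gli2R Tg and 0.77 in WT cells. Nars at 0.73 in Gli2A Tg cells and Vars at 0.87 in Gli2R Tg cells rose less than Gars there. The 2 subunits of the phenylalanine enzyme rose together, Farsa by 1.05 in Gli2A Tg, 1.19 in Gli2R Tg and 1.27 in WT cells, and Farsb by 1.55 in Gli2A Tg, 1.87 in Gli2R Tg and 1.36 in WT cells. Nars, Hars, Rars, Vars and Mars1, for asparagine, histidine, arginine, valine and methionine, lay between, with WT values from 0.94 for Vars to 1.33 for Mars1. The 5 genes whose windows held the composite element rose in every genotype: in WT cells Tars rose by 2.27, Iars by 1.83, Yars by 1.53, Aars by 1.03 and Gars by 0.77. The 6 cytosolic synthetases without it that rose, and that had a window, had WT values of 1.80 for Kars, 1.73 for Eprs, 1.36 for Farsb, 1.33 for Mars1, 1.27 for Farsa and 0.75 for Sars.

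Qars, the glutamine enzyme, was the exception. Its levels were 11.47, 11.45 and 11.71 in stimulated WT cells, against 12.14, 12.01 and 12.09 in resting WT cells. The ranges did not overlap, and the log2 difference was -0.54 ± 0.16 in WT cells (SE; limma adjusted p = 0.0112), with -0.17 and -0.30, not called, in Gli2A Tg and Gli2R Tg cells. The sign depended on the probe set: the other 3 were at 0.16, 0.81 and 0.34 in WT cells, and the mean of all 4 was 0.19 in WT cells and 0.54 in Gli2A Tg cells. With median centring the brightest probe set was at -0.19 (adjusted p = 0.361).

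**Figure D3:**
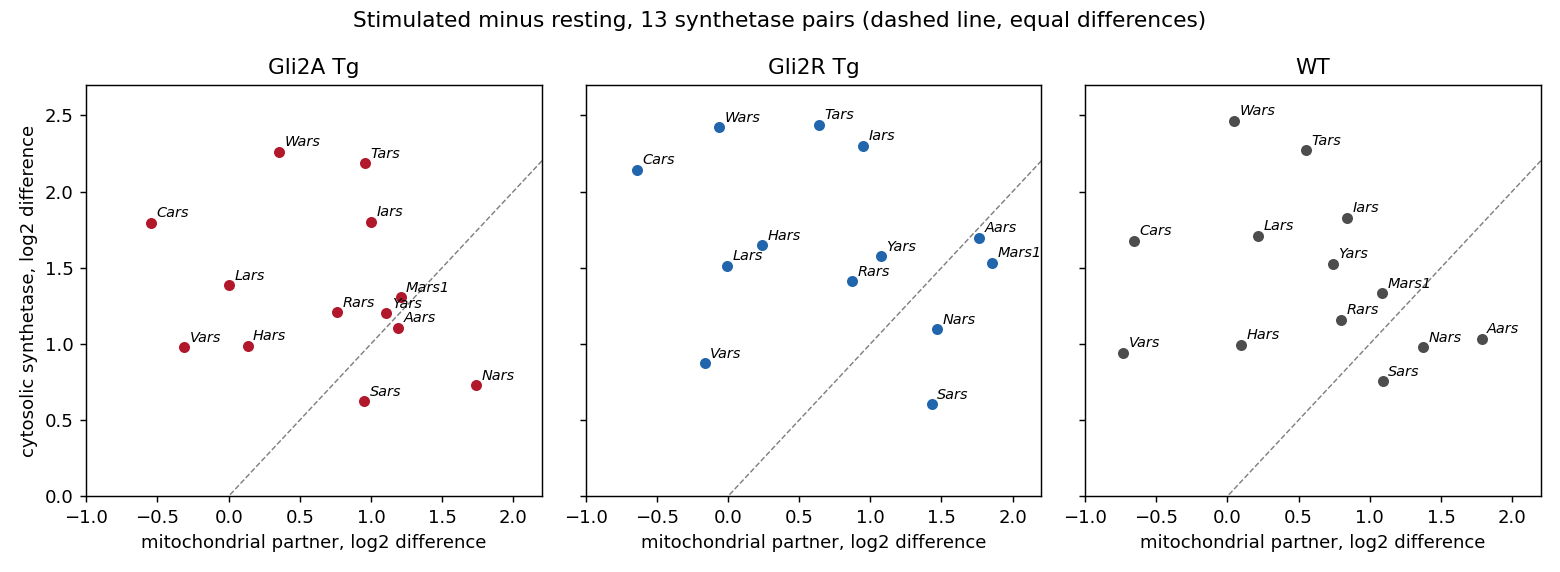
Log2 difference between stimulated and resting cells for 13 amino acids that have a cytosolic synthetase (vertical axis) and a mitochondrial one (horizontal axis), in each genotype. The dashed line marks equal differences. Most points, labelled by the cytosolic gene, lie above it, with Cars and Wars farthest above and Nars, Sars and Aars below in every genotype.

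The mitochondrial synthetases responded less evenly. In each genotype 9 of 16 were higher, 1 was lower and 6 were not called, with medians of 0.72 in Gli2A Tg, 0.64 in Gli2R Tg and 0.52 in WT cells. In each that is 56.2% higher and 6.25% lower. Of genes above the median level, 32.4%, 31.8% and 32% were higher and 34.1%, 34.8% and 33.6% lower in the same order. Nars2, the mitochondrial asparagine enzyme, had levels of 10.29, 10.48 and 10.15 in stimulated WT cells, against 8.73, 8.90 and 9.16 in resting WT cells, far apart. It rose by 1.38 ± 0.17 in WT cells (log2, SE; limma adjusted p = 6.63e-06), 1.74 in Gli2A Tg cells and 1.47 in Gli2R Tg cells. Aars2, for alanine, had levels of 8.25, 8.09 and 8.40 in stimulated WT cells, against 6.99, 5.48 and 6.92 in resting WT cells. It is dim and scattered at rest, and its difference of 1.79 ± 0.43 (log2, SE; limma adjusted p = 0.00301) has a wide error. In Gli2A Tg cells Aars2 was at 1.19, and that call was lost without any one of stimulated Gli2A Tg replicates 1 and 2 and resting Gli2A Tg replicates 1 and 3 (0.83 to 1.26). It was kept under only 3 of the 10 other settings that held the gene. Median centring (1.10, limma adjusted p = 0.0644) and the deposited scaling (0.93, adjusted p = 0.12) were among those that lost it.

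Sars2, Mars2, Iars2, Rars2, Yars2, Tars2 and Pars2 rose in all 3 genotypes, with WT values from 0.48 for Pars2 to 1.09 for Sars2. Mars2 at 1.09 ± 0.40 (SE) and Tars2 at 0.55 ± 0.16 lost their WT calls in some repeats without 1 array. The Mars2 call was lost in 9 and the Tars2 call in 2 of the 18 repeats (0.70 to 1.18, and 0.42 to 0.43). Sars2, Iars2, Rars2 and Yars2 kept their WT calls in all 18. Pars2 was not followed on its own in these repeats or under the other settings. With probe sets averaged Iars2 was not called in Gli2A Tg (0.71, adjusted p = 0.063) or Gli2R Tg cells (0.32, adjusted p = 0.429), and Mars2 not in WT cells (0.62, adjusted p = 0.0634). With the deposited scaling Sars2 was not called in Gli2A Tg (0.55) or WT cells (0.70), Tars2 not in Gli2R Tg (0.41) or WT cells (0.35) and Mars2 not in WT cells (0.92). Median centring also ended the Sars2 call in Gli2A Tg cells (0.72). Cars2, the cysteine enzyme, was the one that fell. Its levels were 8.29, 8.20 and 8.63 in stimulated WT cells, against 8.93, 8.89 and 9.27 in resting WT cells. The ranges did not overlap, and the log2 differences were -0.55 in Gli2A Tg, -0.64 in Gli2R Tg and -0.66 in WT cells (limma adjusted p = 0.0321, 0.0141 and 0.0121). In WT cells the call was lost without stimulated WT replicate 2 (-0.57) or resting WT replicate 3 (-0.54), in Gli2R Tg cells without stimulated Gli2R Tg replicate 1 (-0.52) or resting Gli2R Tg replicate 3 (-0.43), and in Gli2A Tg cells without any one of stimulated replicates 1 and 3 and resting replicates 1 and 3 (-0.58 to -0.47). Ears2, Fars2, Hars2, Lars2, Vars2 and Wars2 were not called, with WT values from -0.73 for Vars2 to 0.22 for Lars2. Some gained a call elsewhere: with the deposited scaling Vars2 was lower in WT cells (-1.12) and Wars2 lower in Gli2R Tg (-0.43) and WT cells (-0.39). Among genes above the median level Wars2 was higher in Gli2A Tg cells (0.36), and with probe sets averaged Lars2 was lower in Gli2A Tg cells (-0.80).

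For 13 amino acids both enzymes were measured by genes of their own. The cytosolic gene had the larger log2 difference in 10 pairs in Gli2A Tg cells, 9 in Gli2R Tg cells and 10 in WT cells, with a median gap of 0.80, 1.04 and 0.90. The gap in WT cells was 2.42 ± 0.20 (SE) for Wars over Wars2, 2.34 ± 0.25 for Cars over Cars2 and 1.72 ± 0.17 for Tars over Tars2. It ran the other way for Nars and Nars2, at -0.40 ± 0.19, for Sars and Sars2, at -0.34 ± 0.32, and for Aars and Aars2, at -0.75 ± 0.43. In WT cells 8 pairs had a gap over 2 SE in favour of the cytosolic gene and 1 pair over 2 SE in favour of the mitochondrial gene.

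Members with several probe sets showed how far 1 probe set speaks for a gene. The 76 members had 187 single-symbol probe sets, and 54 members had more than 1. Of 40 members with more than 1 probe set whose brightest was called in WT cells, 2 had another probe set called in the opposite direction, Eif2s2 and Qars. Eif4a1 was not among them since its brightest probe set was not called.

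**Figure D4:**
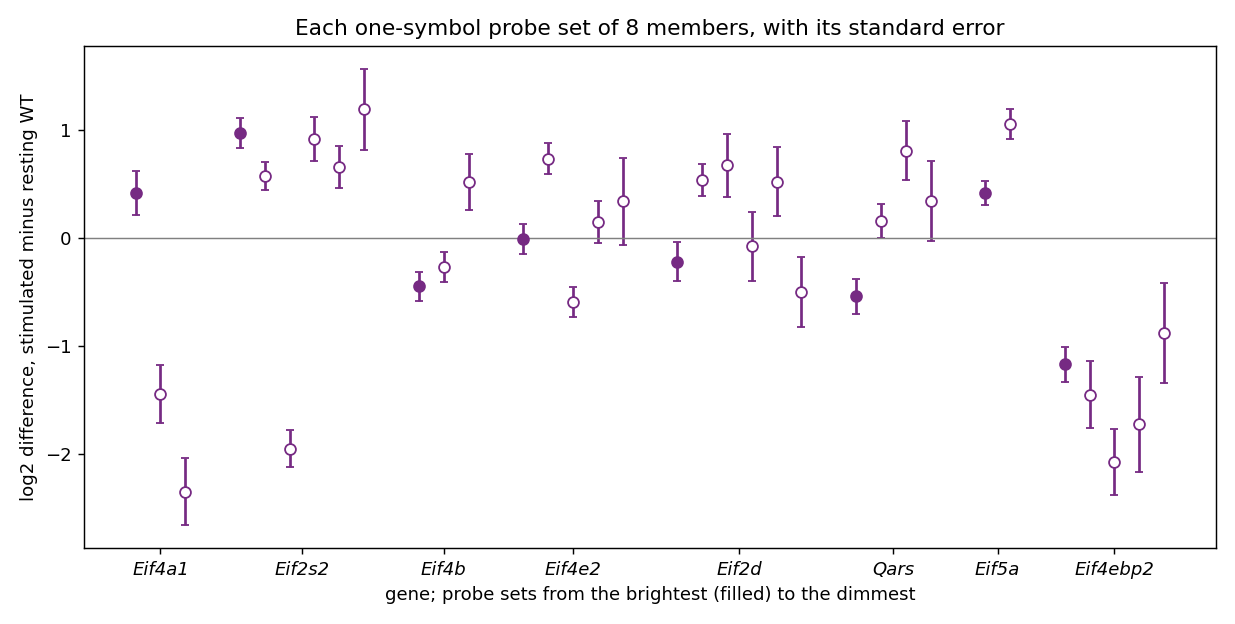
Log2 difference between stimulated and resting WT cells (vertical axis) for each single-symbol probe set of 8 members (horizontal axis), from the brightest, filled, to the dimmest. Bars are standard errors. Eif4a1, Eif2s2 and Qars have probe sets on both sides of 0, and all 5 probe sets of Eif4ebp2 lie below 0.

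Genes that feed, steer and follow initiation, from lists drawn from textbook knowledge, moved with the members in part. Of 10 amino acid transporters 8 rose and 1 fell in each genotype, with a median log2 difference of 1.33 in Gli2A Tg, 1.31 in Gli2R Tg and 1.39 in WT cells. In each genotype that is 80% higher and 10% lower. Of genes above the median level, 32.4%, 31.8% and 32% were higher and 34.1%, 34.8% and 33.6% lower in the same order. The cationic transporter Slc7a1 rose by 2.38 in Gli2A Tg, 2.58 in Gli2R Tg and 2.52 in WT cells. The leucine transporter Slc7a5 rose by 1.97 in Gli2A Tg, 2.83 in Gli2R Tg and 2.46 in WT cells. Slc7a6, an exchanger of basic amino acids, rose by 2.41 in Gli2A Tg, 2.08 in Gli2R Tg and 2.55 in WT cells. Slc1a5 had levels of 11.47, 11.50 and 11.44 in stimulated WT cells, against 9.62, 9.77 and 9.98 in resting WT cells. Slc43a1, another carrier of large neutral amino acids, is named as the 1 that fell, at -2.41 in Gli2A Tg, -1.39 in Gli2R Tg and -1.59 in WT cells.

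Of 18 genes of the eIF2 kinases and the integrated stress response, 6 rose and 4 fell in Gli2A Tg cells, 7 and 3 in Gli2R Tg cells and 6 and 3 in WT cells. In that order 33.3%, 38.9% and 33.3% rose, beside 32.4%, 31.8% and 32% of genes above the median level. The shares that fell were 22.2%, 16.7% and 16.7%, against 34.1%, 34.8% and 33.6%. Not every gene of the list lies above that level, Nupr1 for one. Over all genes 20.2%, 19.8% and 19.7% rose and 22.8%, 22.5% and 22% fell. The ATF4-dependent genes Sesn2, Chac1 and Trib3 rose by 3.32, 2.73 and 2.63 in WT cells. Atf3 was also higher, with levels of 9.19, 9.02 and 9.09 in stimulated WT cells, against 6.76, 6.50 and 6.89 in resting WT cells. Atf4, Asns and Ddit3 were picked after their values were seen. Atf4 itself rose by 2.02 in Gli2A Tg, 1.40 in Gli2R Tg and 1.86 in WT cells. Asns, the asparagine synthetase and a classical ATF4 target, fell in WT cells, at -1.5 ± 0.43 (SE; limma adjusted p = 0.0111), and Ddit3, the stress factor CHOP, at -1.19 ± 0.22 (adjusted p = 0.00044). Members of the list thus moved both ways.

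Of 14 genes through which mTOR and MAP kinases control initiation, 3 rose and 6 fell in Gli2A Tg cells, 5 and 5 in Gli2R Tg cells and 4 and 5 in WT cells. In that order 21.4%, 35.7% and 28.6% rose, against 32.4%, 31.8% and 32% of genes above the median level. The shares that fell were 42.9%, 35.7% and 35.7%, against 34.1%, 34.8% and 33.6%. Over all genes 20.2%, 19.8% and 19.7% rose and 22.8%, 22.5% and 22% fell. With 14 genes these counts do not set the list apart. Pdcd4, an inhibitor of eIF4A, had the largest fall, at -3.99 in Gli2A Tg, -4.27 in Gli2R Tg and -4.01 in WT cells (limma adjusted p = 8.93e-10 in WT cells). Mknk2, a kinase of eIF4E, fell as well, at -1.75 in Gli2A Tg, -1.76 in Gli2R Tg and -1.78 in WT cells, and Deptor, an mTOR inhibitor, at -1.15 in WT cells. Larp1, which binds oligopyrimidine mRNAs under mTORC1 control, rose by 0.59 in Gli2A Tg, 1.42 in Gli2R Tg and 1.32 in WT cells.

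Of 10 genes of mRNA circularisation and helicases, 4 rose and 3 fell in WT cells. Paip2, which blocks the poly(A)-binding protein, fell, at -1.76 in Gli2A Tg, -2.17 in Gli2R Tg and -1.97 in WT cells, and the helicase Dhx29 rose, at 1.30 in WT cells. Of 11 elongation and termination genes 5 rose and none fell in WT cells, the release factors Etf1 and Gspt1 by 1.22 and 1.10, and Abce1, which recycles ribosomes, by 0.99. Of 8 genes of the synthetase complex and its relatives 4 rose and 1 fell in WT cells, with Aimp2, a scaffold protein of the complex, at 1.43. Of 12 mitochondrial translation factors 6 rose and 1 fell in WT cells, with the elongation factor Tufm at 1.67 and the initiation factor Mtif2 at -0.68. In WT cells 32% of genes above the median level were higher and 33.6% lower, and of all genes 19.7% and 22%. Beside that, the circularisation list had 40% and 30%, and the elongation and termination list 45.5% and 0%. The synthetase complex list had 50% and 12.5%, and the mitochondrial factors 50% and 8.33%. The lists are short, so these shares are coarse.

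Whether the Gli2 transgenes change these genes was asked at rest and after stimulation. No member was called by limma in any of the 6 comparisons between genotypes. In resting cells, Gli2A Tg against WT had 0 of 76 called, with 0.55% of all genes called, and Gli2R Tg against WT had 0, with 0% of all genes. In stimulated cells the same comparisons had 0 members each, with 0.137% and 0.044% of all genes. Gli2A Tg against Gli2R Tg had 0 members, with 2.4% of all genes at rest and 0.231% after stimulation. At an unadjusted p under 0.05 the members numbered 4 and 5 at rest and 5 and 2 after stimulation for Gli2A Tg and Gli2R Tg against WT, and 8 at rest and 5 after stimulation for Gli2A Tg against Gli2R Tg. Over all genes that threshold was passed by 10.1%, 10.3%, 11.4% and 9.21% in the first 4, and by 17% and 9.16% in the last 2.

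For most members these arrays leave room for a transgene effect of less than 2-fold either way, a log2 difference of 1. That bound is larger than the median stimulation difference of the members, 0.74 in Gli2A Tg, 0.89 in Gli2R Tg and 0.82 in WT cells. The intervals reflect only the spread between these arrays. The 95% interval of the difference lay within 2-fold either way for 74 members in resting and 72 in stimulated Gli2A Tg against WT cells, and for 71 and 73 in Gli2R Tg against WT cells. It lay within 1.5-fold for 59, 55, 59 and 63 members in the same order. The largest log2 differences from WT were between -0.84 and 0.63. Comparisons with WT share the WT arrays, so they are not independent of each other.

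**Figure D5:**
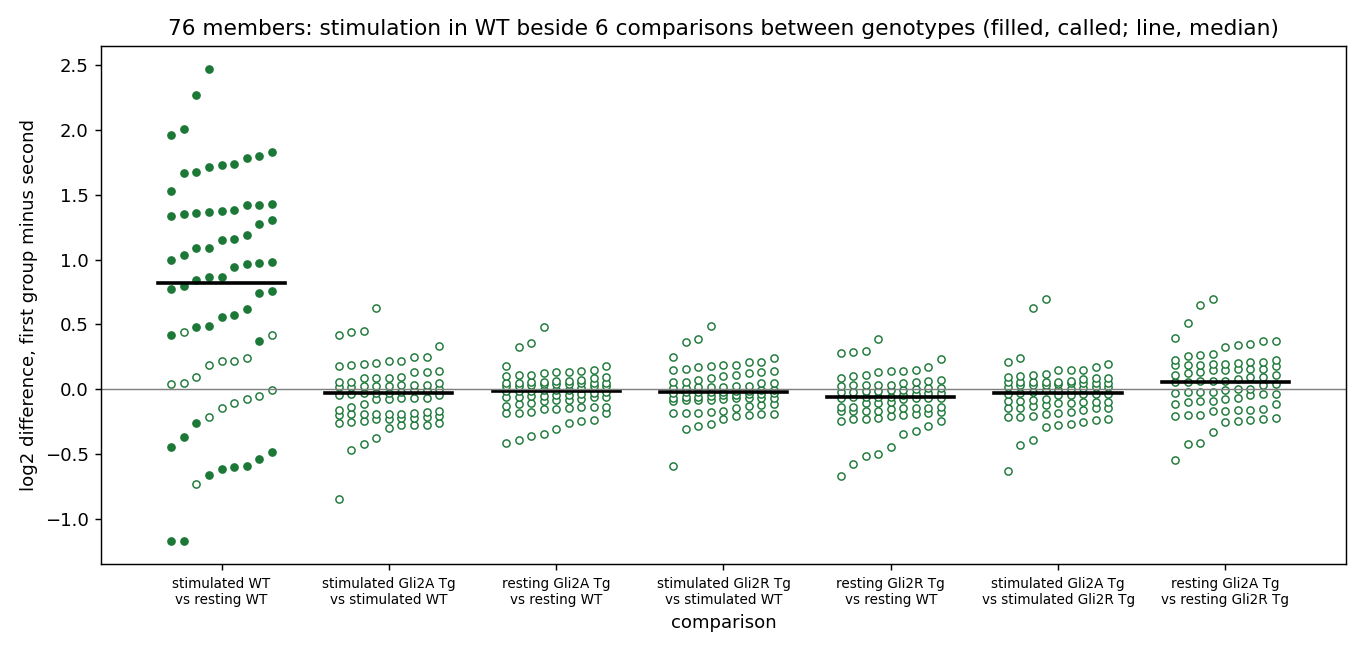
Log2 differences of the 76 members (vertical axis) in WT stimulation and in 6 comparisons between genotypes (horizontal axis), each the first named group minus the second. Filled points passed the test, and black lines are medians. Stimulation spreads the members from -1.17 to 2.47, and no point of the genotype comparisons is filled.

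The members with the lowest p in each comparison are given as values only. Eif4h was highest in stimulated transgenic cells, with 15.07, 15.18 and 15.16 in stimulated Gli2A Tg, 15.07, 15.13 and 14.96 in stimulated Gli2R Tg and 14.71, 14.62 and 14.73 in stimulated WT cells. The arrays of both transgenic lines lay above those of WT cells, at log2 differences of 0.45 ± 0.11 and 0.36 ± 0.11 (SE; limma adjusted p = 0.125 and 0.331). The Gli2A Tg difference passed the threshold when only genes above the median level were tested (adjusted p = 0.0368) and with the trended, robust variance model (adjusted p = 0.00982). At rest Eif4h had 13.52, 13.53 and 13.72 in Gli2A Tg, 13.33, 13.31 and 13.57 in Gli2R Tg and 13.52, 13.48 and 13.62 in WT cells, which overlap.

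Eif4a2 at rest had 13.32, 13.06 and 13.06 in Gli2A Tg cells, against 13.61, 13.55 and 13.54 in Gli2R Tg cells. The difference was -0.42 ± 0.12 (log2, SE; limma adjusted p = 0.0816), and it passed the threshold with a constant of 64 in the logarithm, among genes above the median level, with the trended, robust model and without resting Gli2A Tg replicate 1 (adjusted p = 0.0153 to 0.0466). Wars2 had 7.84, 8.06 and 7.81 in resting Gli2A Tg cells, against 8.42, 8.53 and 8.41 in resting Gli2R Tg cells, without overlap and with the lowest p of that comparison (log2 -0.55 ± 0.16, SE; limma adjusted p = 0.0777). It passed with the constant of 64 and among genes above the median level (adjusted p = 0.0465 and 0.0247). The summed myeloid markers also differed between these groups at rest, 103000 to 109000 against 44700 to 58100, and their part in these values was not tested.

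For the other comparisons the lowest p belonged to Yars2 in resting Gli2A Tg against WT cells (-0.41 ± 0.14, adjusted p = 0.266), Cars in resting Gli2R Tg against WT cells (-0.44 ± 0.12, adjusted p = 0.228) and Eif4ebp1 in stimulated Gli2A Tg against Gli2R Tg cells (0.70 ± 0.24, adjusted p = 0.321; log2 differences, SE, limma). Eif4ebp1 had 11.78, 11.66 and 11.31 in stimulated Gli2A Tg cells, against 10.78, 10.98 and 10.90 in stimulated Gli2R Tg cells, without overlap.

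The response to stimulation was also compared between genotypes, as the difference of stimulation effects. No member was called by limma for Gli2A Tg minus WT, Gli2R Tg minus WT or Gli2A Tg minus Gli2R Tg, with 0.011%, 0% and 0.11% of all genes called and 3, 5 and 4 members at an unadjusted p under 0.05, which 10.1%, 8.65% and 10.6% of all genes passed. The 95% interval lay within 2-fold for 66, 66 and 64 of the 76 members, and within 1.5-fold for 27, 29 and 33. The lowest p for Gli2A Tg minus WT was that of Eif4b, at -0.70 ± 0.18 (log2, SE; 95% interval -1.08 to -0.33; adjusted p = 0.188). For Gli2R Tg minus WT it was Eif4h, at 0.50 ± 0.16 (adjusted p = 0.382), and for Gli2A Tg minus Gli2R Tg it was Eif4a2, at 0.66 ± 0.17 (adjusted p = 0.166). The Eif4a2 difference passed among genes above the median level and with the trended, robust model (adjusted p = 0.046 and 0.0314).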

How the data were processed

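RNA of splenic CD4 T cells was hybridised to 18 Affymetrix arrays in 6 groups of 3. The deposited intensities are linear values that the authors made with affy, per the submitters' processing notes, and each array had a 2% trimmed mean of 500. The background and summary methods are not given in the sources used here. For RNA extraction the labels' protocols give Trizol in one place and a Stratagene kit in another.

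Intensities were quantile normalized after log2(intensity + 16). Of 45101 probe sets, 34945 carried 1 symbol in the platform annotation, 932 several, 9160 none and 64 were controls. The brightest stood for each of 18193 genes. All 18 arrays were fitted together in limma 3.58.1 (R 4.3.3, statmod 1.5.0), with Benjamini-Hochberg adjustment over all genes within each comparison and calls at an adjusted p under 0.05. The number of arrays limits the precision. The procedure was tested on simulated data.

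The members and lists were chosen with earlier results of these data known. Named members were the 3 largest and 3 smallest differences in WT cells of each role group and members called lower in any genotype. Paralogue pairs and the lowest p of each genotype comparison were named too. From each pathway list up to 4 genes were named, with a few more picked after their values were seen. The remaining 13 members, Eif2s2 and Pars2 among them, are described beside the named ones. They were not followed gene by gene under the alternatives, so the values that lost a call or turned leave them out. Same-numbered replicates did not deviate together in every pair of any comparison (for WT stimulation r = 0.013, 0.031 and 0.056), so the numbers were not treated as pairs. Alternatives were another constant, scaling, filter, variance model, array weights, probe-set mean, the compared arrays alone, a replicate block and each array left out. An alternative without both arrays that stood apart was chosen after seeing the data.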

Additional observations from a re-analysis of the deposited data

How the results depend on the processing

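Over 11 other settings, the members called higher numbered 43 to 49 in Gli2A Tg, 46 to 50 in Gli2R Tg and 44 to 51 in WT cells, against 49 in each as reported, and those called lower 5 to 10, 7 to 10 and 4 to 11, against 9, 9 and 11. For the lower calls, median centring gave 5 in Gli2A Tg and 4 in WT cells, and fitting only the compared arrays gave 5 in Gli2A Tg cells. With 1 array left out, higher calls were 44 to 49, 47 to 49 and 45 to 49 in Gli2A Tg, Gli2R Tg and WT cells, and lower calls 5 to 9, 7 to 9 and 7 to 11. The replicate block gave 47 higher and 9 lower in Gli2A Tg, 49 and 9 in Gli2R Tg and 49 and 10 in WT cells, and 0 members in every genotype comparison. Without both arrays that stood apart the counts were 46 and 7, 49 and 9, and 49 and 11.

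Genotype calls appeared in a few settings. Resting Gli2A Tg against Gli2R Tg gave 2 members with a constant of 64 and 3 among genes above the median level (73 members tested). It gave 2 with the trended, robust model and 0 to 2 with 1 array left out. Beside Eif4a2 and Wars2, Eif3m was among these calls, at -0.42. Eif3m passed among genes above the median level and with the trended, robust model (limma adjusted p = 0.0394 and 0.0284). Aars passed without resting Gli2A Tg replicate 1 (0.93, limma adjusted p = 0.0214). Stimulated Gli2A Tg against WT, and the difference of stimulation effects between Gli2A Tg and Gli2R Tg, gave 1 each among genes above the median level and 1 each with the trended, robust model.

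Of 2070 values of the 63 named members under other settings, 1955 stayed on the same side of the threshold without a called value turning, 27 gained a call, 73 lost it and 15 turned direction with a call on at least one side. With 1 array left out, the same counts were 3311, 5, 86 and 0 of 3402. Values called in neither fit also changed sign, 47 times under other settings and 28 times with 1 array left out, in 16 members and none beyond 0.48 either way. The values that turned with a call were, with median centring, Eif4a2 at 0.069 and Eif5a at -0.14 in Gli2A Tg cells and Eif5a at -0.079 in Gli2R Tg cells. With the deposited scaling they were Wars2 at -0.39 in WT, Eif5a at -0.31 in Gli2A Tg and at -0.12 in Gli2R Tg cells. With probe sets averaged per gene they were Eif4e2 at 0.49, Eif4g2 at 0.37, Lars2 at -0.80 and Qars at 0.54 in Gli2A Tg cells, Eif3h at 0.17, Eif4a1 at -1.03 and Eif5a2 at 0.44 in Gli2R Tg cells, and Eif4a1 at -1.12 and Qars at 0.19 in WT cells. The cause of these changes was not tested, except that the probe-set mean adds other probe sets by construction.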

Other observations

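Some probe sets carried the symbols of several genes and so stood for no member. The probe sets shared by Eif3j1 and Eif3j2, copies of a loosely bound eIF3 subunit, were all higher after stimulation, and the brightest had log2 differences of 1.31 in Gli2A Tg, 1.46 in Gli2R Tg and 1.33 in WT cells (limma adjusted p = 2.13e-06 in WT cells). A probe set shared by Eif4a3 and Gm5576 had 0.69, 0.57 and 0.67 in the same order, and 1 shared by Aars and Exosc6 had 1.0, 0.86 and 0.99. The probe set shared by Ankhd1 and Eif4ebp3 was at -0.70, -0.65 and -0.59. Which of the genes each probe set reads cannot be told apart.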
